A study of Homo sapiens with 6 samples.

Results

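The 7 genes HES1, HES4, HES5, HES6, HEY1, HEY2 and HEYL encode the HES and HEY families of transcription repressors, and their surroundings were examined in chromatin immunoprecipitation sequencing (ChIP-seq) peak lists for LSD1, H3K4me2 and H3K4me1. Members were all distinct intervals of the 4 peak lists within 50 kb of 1 of these genes, with gene positions on genome build hg19 given to 1 kb. They numbered 225 of the 271093 intervals in all. They comprised 34 of 45188 LSD1 intervals with DMSO, 37 of 49597 LSD1 intervals with inhibitor, 78 of 81619 H3K4me2 intervals and 76 of 94689 H3K4me1 intervals. The rule used position alone and no measured value, although the genes were chosen with earlier results of these data known.

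All libraries came from NCI-H526, an established human small cell lung cancer line, described in the labels as epithelial and grown over multiple passages. LSD1 was mapped in cells treated with DMSO, the vehicle, and in cells treated with the LSD1 inhibitor GSK2879552 (GSK552 in the labels), for which the treatment text gives 1 µM for 24 hours. H3K4me2 and H3K4me1 were mapped with DMSO. The marks in inhibitor-treated cells were not analysed here, and the 2 inputs were not used here. Each group had 1 library, so differences between lists are differences between single libraries, carry no p-value and may be technical. The sources used here do not give read depth.

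As background, Notch signalling acts through cleavage of a Notch receptor on contact with a ligand on a neighbouring cell. The freed intracellular domain joins the DNA-binding protein RBPJ and switches on target genes, of which the HES and HEY genes are the best known. Their products are basic helix-loop-helix proteins that repress transcription. HES1 and HES5 are direct targets of Notch, as are HEY1, HEY2 and HEYL in many tissues. HES6 stands apart in that it counteracts HES1 and is commonly found in neural and neuroendocrine cells. LSD1 (KDM1A) removes methyl groups from H3K4me2 and H3K4me1 and works with repressor complexes. H3K4me2 marks promoters and enhancers, whereas H3K4me1 is common at enhancers and low at the starts of active genes.

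The sequences just upstream of the starts show which of these genes carry the short letters that RBPJ binds. The 250 bases upstream of the annotated start of 4 genes are given here from RefSeq (build GRCh38.p14, 5′ to 3′ on the gene's strand). They set HES1, HES4 and HES6, whose starts as placed lay in LSD1 and H3K4me2 without H3K4me1, beside HES5, whose start lay in both marks without LSD1. HEYL shared the pattern of HES1, HES4 and HES6, but its sequence is not printed here. Capitals mark TGGGAA or its reverse complement TTCCCA, the core of the RBPJ motif. No sequence was read from the hg19 peak positions, since no genome of that build was used here.
HES1: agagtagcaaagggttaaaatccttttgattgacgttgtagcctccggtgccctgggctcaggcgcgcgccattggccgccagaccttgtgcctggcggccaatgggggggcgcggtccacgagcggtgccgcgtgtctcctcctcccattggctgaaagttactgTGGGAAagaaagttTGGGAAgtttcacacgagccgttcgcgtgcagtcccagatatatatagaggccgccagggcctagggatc
HES4: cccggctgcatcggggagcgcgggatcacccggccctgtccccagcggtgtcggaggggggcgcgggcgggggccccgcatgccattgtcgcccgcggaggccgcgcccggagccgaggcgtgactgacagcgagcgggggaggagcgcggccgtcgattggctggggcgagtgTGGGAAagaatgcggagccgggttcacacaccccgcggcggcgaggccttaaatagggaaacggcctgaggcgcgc
HES5: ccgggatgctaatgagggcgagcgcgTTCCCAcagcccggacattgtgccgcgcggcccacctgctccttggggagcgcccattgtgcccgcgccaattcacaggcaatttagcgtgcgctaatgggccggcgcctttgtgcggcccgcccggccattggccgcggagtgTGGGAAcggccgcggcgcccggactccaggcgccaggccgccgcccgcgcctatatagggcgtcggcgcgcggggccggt
HES6: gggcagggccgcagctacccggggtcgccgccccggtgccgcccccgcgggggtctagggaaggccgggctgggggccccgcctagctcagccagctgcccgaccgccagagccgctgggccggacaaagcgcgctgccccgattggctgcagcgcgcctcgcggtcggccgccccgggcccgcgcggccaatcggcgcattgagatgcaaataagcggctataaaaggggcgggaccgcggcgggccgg

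The promoter table held 6 of the 7 genes, all but HEY1. The TGGGAA core was present on either strand in 5 of these 6 windows, beside 20.8% of all 35116 promoter windows of the same length. It began 84 and 70 bases upstream of the start in HES1, 76 bases upstream in HES4 and 80 bases upstream in HES5, each on the forward strand, so that HES1, HES4 and HES5 shared a forward core at nearly the same distance. HES5 had another core on the reverse strand 224 bases upstream. HEYL had a forward core 99 and a reverse core 178 bases upstream, and HEY2 a reverse core 213 bases upstream. No match was found in the HES6 window. The N-box CACNAG, which HES repressors bind, was searched on both strands and occurred 3 times in HES1 and in none of the other 5 windows, beside 32.0% of all windows. The class C site CACGCG occurred 2 times in HES1 and in none of the others (9.72% of all windows), and the E-box CACGTG in none of the 6 (6.34%). A match in letters does not show binding.

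With starts placed to 1 kb, H3K4me2 lay over every one of the 7, LSD1 lay at or beside 6 of them, and H3K4me1 lay to the side of most. The start was inside an H3K4me2 interval at 7 of 7 genes, inside an LSD1 interval at 4 with DMSO and at 6 with inhibitor, and inside an H3K4me1 interval at 2, HES5 and HEY2. When each start was allowed to move by 1 kb, an LSD1 interval was reached at 6 genes in both LSD1 lists and an H3K4me1 interval at 5. This setting can only keep or raise a count, so it does not show how many starts would fall outside an interval. Among LSD1 intervals with a −log10 q of 2 or more, 3 starts lay inside with DMSO and 5 with inhibitor. In the highest-scoring 50% of each list these counts were 3 and 4. LSD1 with DMSO lay within 2 kb of 6 genes, and of 4 under either stricter setting. With inhibitor it lay within 2 kb of 7 genes, and of 7 and 6 under the same settings. Starts were given to 1 kb, and at every gene an edge of the H3K4me2 interval over the start was closer than that. H3K4me2 ran past the start by 0.033 kb at HES1, 0.174 kb at HES6 and 0.273 kb at HEYL. Inhibitor LSD1 ran past the HEYL start by 0.018 kb. The counts of starts inside intervals are therefore uncertain, most of all for HEY2 and HES4, as given with those genes. Starts of other genes were not analysed here, so none of these counts is shown to be particular to the HES and HEY genes. HES5 was the gene without LSD1 at its start in either list. The H3K4me2 intervals that held the starts ranged in score from the 73.1 percentile of the H3K4me2 list at HEYL to the 91.98 percentile at HEY1. The percentile is the rank of an interval's score within its own list, with 100 the highest, and fold below is the authors' enrichment of an interval over the caller's background.

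**Figure D1:**
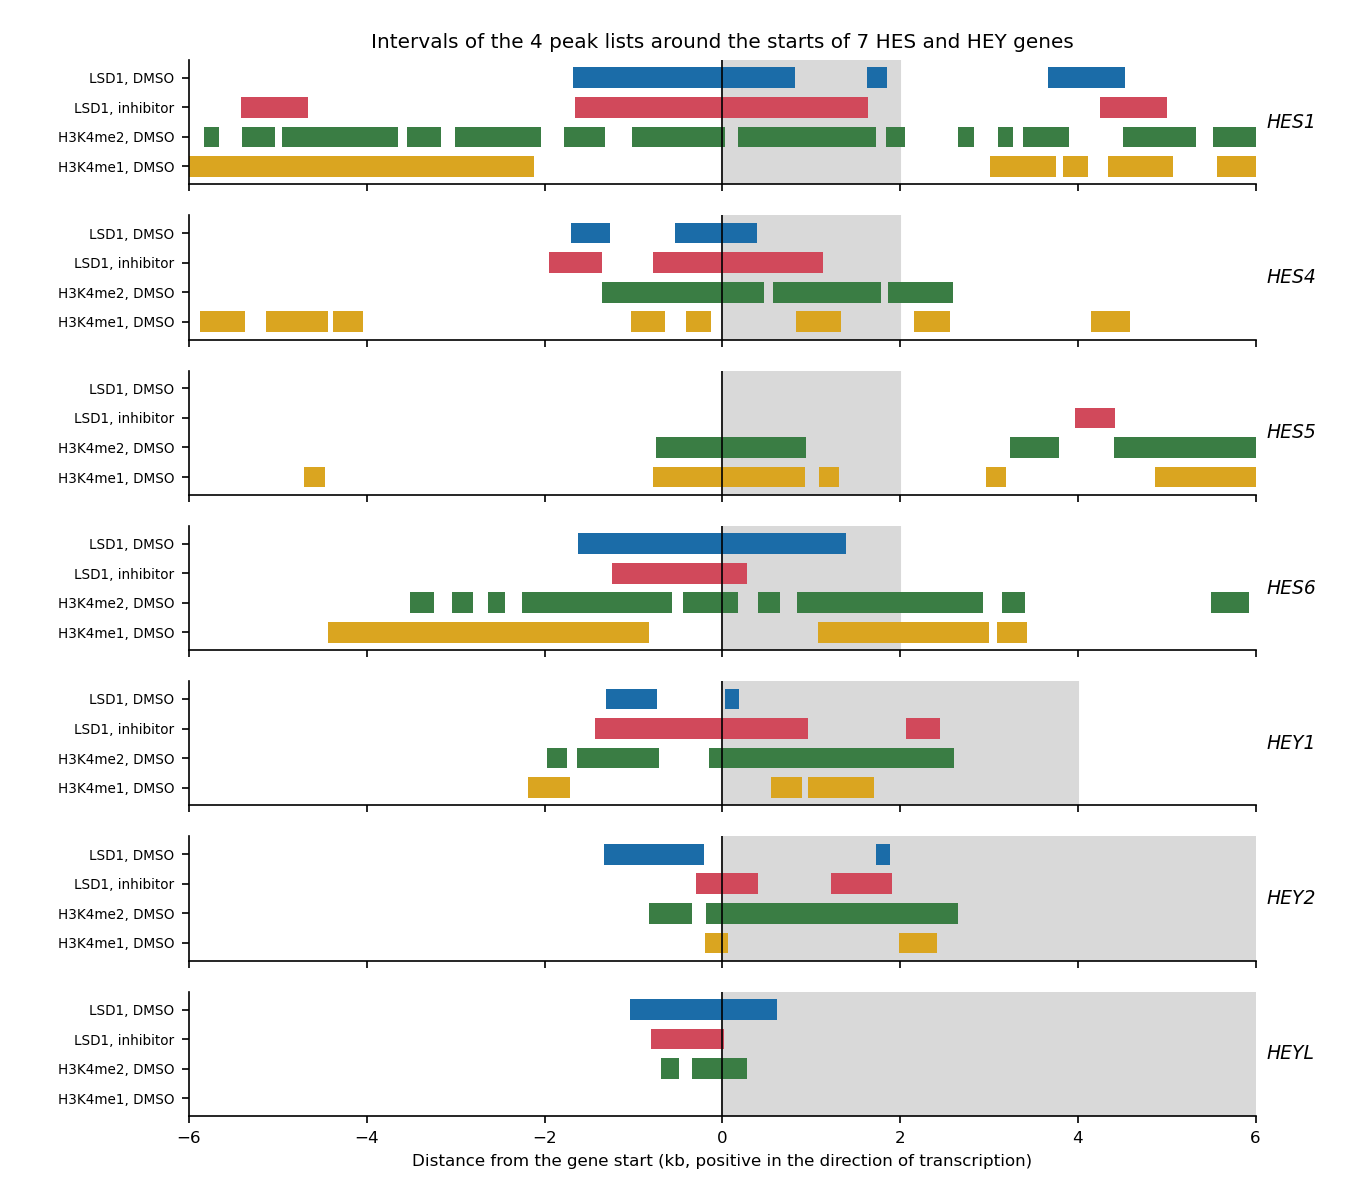
Intervals of the 4 peak lists around the starts of the 7 genes, by distance from the gene start in kb, positive in the direction of transcription; bars are intervals of 1 library each, the vertical line is the start and the grey field the gene. H3K4me2 covers all 7 starts as placed to 1 kb, HES5 has no LSD1 bar at its start, and HEYL has no H3K4me1 bar within 6 kb.

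HES1, a direct effector of Notch signalling, had the strongest LSD1 interval at a gene start. With DMSO the LSD1 interval at chromosome 3, 193852316 to 193854820, was 2.51 kb wide, had a fold of 4.70 and a −log10 q of 4.43 (the authors' corrected p on a log scale), and stood at the 90.3 percentile. With inhibitor the interval at 193852341 to 193855642 was 3.30 kb wide, with a fold of 5.99, a −log10 q of 7.44 and the 92.7 percentile. Both reached from about 1.7 kb upstream of the start into the gene, and the inhibitor interval also touched a second, weaker DMSO interval of 0.229 kb in the gene. H3K4me2 had 7 intervals within 2 kb of HES1, covering 4.14 kb and with a highest fold of 15.0. H3K4me1 was missing from a stretch of 5.13 kb around the start, from 2.12 kb upstream to 3.02 kb downstream. It was present on either side of that stretch, with an upstream interval 4.36 kb wide at 193847531 to 193851885 (fold 9.90).

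Further from HES1, a group of intervals lay 25 to 32 kb downstream, where both marks and LSD1 met. The H3K4me1 interval there was 2.06 kb wide (chromosome 3, 193882580 to 193884636), with a fold of 12.0 and the 95.6 percentile. LSD1 was present inside it in both lists, with a fold of 3.55 with DMSO at 193882844 to 193883317 and of 3.87 with inhibitor at 193882923 to 193883399. Upstream, the inhibitor list held an interval without either mark 11.9 to 13.0 kb from the start (193840997 to 193842140, fold 4.58) and a weak one 4.66 to 5.42 kb from it on both marks (fold 3.28). Neither was overlapped by an LSD1 interval with DMSO. Of the 4 DMSO intervals in the HES1 window, all 4 were overlapped by an inhibitor interval.

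HES5, the other classical Notch effector of the HES family, carried both marks over its start without LSD1. The H3K4me2 interval at chromosome 1, 2461054 to 2462745, had a fold of 12.7 and the 84.0 percentile. The H3K4me1 interval at 2461064 to 2462775 covered nearly the same bases, with a fold of 7.60 and the 85.1 percentile. The nearest LSD1 interval with DMSO lay 8.495 kb upstream of the start, and with inhibitor the nearest lay 3.97 kb downstream of it. That inhibitor interval, at 2457582 to 2458033, lay beyond the end of the gene. It had a fold of 5.89 and a −log10 q of 7.99, stood at the 93.9 percentile and overlapped H3K4me2 without H3K4me1. No DMSO LSD1 interval overlapped it, and it had the highest score of the 15 intervals found with inhibitor alone.

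Upstream of HES5, 3 LSD1 sites between 8 and 17 kb from the start were present in both lists. The outermost pair lay at 2477792 to 2478717 with DMSO (fold 4.66, 89.2 percentile) and 2477514 to 2478492 with inhibitor (fold 5.18, 87.7 percentile). Both overlapped an H3K4me2 interval with a fold of 14.8 and an H3K4me1 interval with a fold of 9.66. The pair at 2472640 to 2473651 (DMSO, fold 4.08) and 2472532 to 2473711 (inhibitor, fold 3.65), and the pair at 2470495 to 2471134 (fold 4.07) and 2470612 to 2471176 (fold 3.49), overlapped neither mark. The next protein-coding genes in the order of the RefSeq table are PANK4 on one side and TNFRSF14 on the other, so these sites cannot be assigned to HES5 by position.

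HES4, a HES1-like repressor, had LSD1 over its start in both lists, as that start was placed. The RefSeq span of HES4 is 1.13 kb and the interval used for it 2 kb, so its start may be off by 0.866 kb. LSD1 with DMSO ran 0.393 kb past the placed start, and H3K4me1 came within 0.127 kb of it. Whether the true start lies in either is therefore not settled. The DMSO interval at chromosome 1, 935607 to 936527, was weak, with a fold of 3.32, a −log10 q of 1.69 and the 35.7 percentile. The inhibitor interval at 934863 to 936775 was 1.91 kb wide beside 0.921 kb with DMSO, with a fold of 4.41, a −log10 q of 4.93 and the 80.8 percentile. A further pair lay 1.26 to 1.95 kb upstream, with a fold of 4.06 with DMSO (937262 to 937703) and 3.63 with inhibitor (937358 to 937947). H3K4me2 covered 3.78 kb of the gene and its 2 kb flanks, with a highest fold of 18.8 at 934212 to 935434. H3K4me1 was broken into 4 short intervals there, with folds from 3.93 to 5.30, and left a stretch of 0.956 kb at the start free.

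The HES4 window was the fullest of the 7, with 64 intervals of the 4 lists, and held 28 of the 76 H3K4me1 intervals. With DMSO its highest-scoring LSD1 interval lay 39.9 to 41.3 kb downstream, at 894653 to 896126 (fold 5.47, −log10 q 5.73, 94.7 percentile). The inhibitor interval there, at 894557 to 896134 (fold 4.73, −log10 q 4.91), shared the 80.8 percentile with the one over the start (−log10 q 4.93). Neither interval overlapped a mark, although H3K4me2 intervals lay on both sides. The DMSO interval had the highest score of the DMSO LSD1 intervals in the 7 windows. Of the 10 DMSO LSD1 intervals in the window, 5 were overlapped with inhibitor. The neighbouring protein-coding genes are PERM1 and PLEKHN1 on the downstream side and ISG15 and AGRN on the upstream side.

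HES6, which counteracts HES1, had the widest DMSO LSD1 interval of the 7 windows and the strongest H3K4me2 at a gene. With DMSO the LSD1 interval at chromosome 2, 239147610 to 239150621, was 3.01 kb wide, with a fold of 3.94 and the 79.7 percentile. With inhibitor the interval at 239148722 to 239150243 was 1.52 kb wide and lay wholly inside it, with a fold of 3.42 and the 58.4 percentile. H3K4me2 covered 4.67 kb of the gene and its 2 kb flanks, the most of the 7 genes, and the interval just upstream of the start, at 239149560 to 239151250, reached a fold of 21.4 and the 99.4 percentile. H3K4me1 flanked the start on both sides of a free stretch of 1.90 kb, with an upstream interval of 3.62 kb (239149820 to 239153439, fold 10.7). All 4 DMSO LSD1 intervals in the HES6 window overlapped both marks.

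Far upstream of HES6, towards PER2 and TRAF3IP1 in the order of genes, the H3K4me1 interval at 239191848 to 239196940 was the widest of the 225 intervals at 5.09 kb, with a fold of 17.9. LSD1 there differed in position between the lists. The DMSO interval at 239196439 to 239197542 and the inhibitor interval at 239197539 to 239198111 shared 4 bases. The highest-scoring inhibitor interval of the window, at 239165154 to 239165458 (fold 3.65), overlapped no mark and no DMSO interval.

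HEY1, a Notch target in many tissues and a partner of HES1, showed weak LSD1 at its start. With DMSO, LSD1 was split into 2 intervals at chromosome 8, 80679806 to 80679973 and 80680738 to 80681310, with folds of 3.06 and 3.13 and −log10 q values of 1.32 and 1.24. With inhibitor, 1 interval at 80679036 to 80681434 spanned both, 2.40 kb wide, with a fold of 3.35 and a −log10 q of 1.90, at the 19.8 percentile. A second inhibitor interval lay inside the gene at 80677545 to 80677936 (fold 3.03, −log10 q 3.20) and was not overlapped with DMSO. The H3K4me2 interval over the start, at 80677387 to 80680150, was 2.76 kb wide with a fold of 14.3 and the 91.98 percentile. H3K4me1 left 2.26 kb around the start free.

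Upstream of HEY1, an H3K4me2 interval without H3K4me1 at 80695556 to 80697048 (fold 11.4, 95.1 percentile) was overlapped by LSD1 with inhibitor (80695591 to 80696449, fold 3.34) and not with DMSO. A weak LSD1 pair 8.01 to 8.40 kb upstream, with folds of 3.00 with DMSO (80688014 to 80688395) and 3.56 with inhibitor (80688108 to 80688330), lay just outside an H3K4me1 interval with a fold of 7.92. No interval of any list lay downstream of HEY1 within 50 kb, towards STMN2.

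HEY2, known for its part in heart and vessel development, had LSD1 beside its start, and the strongest LSD1 site of its window lay downstream of the gene. The RefSeq span of HEY2 is 11.6 kb and the interval used for it 13.0 kb, so its start may be off by 1.36 kb besides rounding, more than the distance by which the H3K4me1 and inhibitor LSD1 intervals described here contain it. The DMSO interval at chromosome 6, 126067672 to 126068791, ended 0.209 kb before the start (fold 3.58), and the inhibitor interval at 126068706 to 126069400 lay over it (fold 4.72, 68.9 percentile). Another pair lay 1.22 to 1.91 kb inside the gene, at 126070731 to 126070891 with DMSO (fold 3.58) and 126070219 to 126070914 with inhibitor (fold 3.28). The H3K4me2 interval over the start, at 126068814 to 126071647, was 2.83 kb wide with a fold of 12.1. H3K4me1 had 2 short intervals within 2 kb of the gene, covering 0.692 kb, with folds of 5.91 and 3.93.

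The highest-scoring inhibitor LSD1 interval of all 7 windows lay 32.4 to 33.0 kb downstream of the HEY2 start, at 126101365 to 126101983. It had a fold of 7.67, a −log10 q of 10.4 and the 97.2 percentile. With DMSO the interval at 126101459 to 126102416 overlapped it, with a fold of 4.44, a −log10 q of 3.28 and the 80.98 percentile. Both overlapped an H3K4me2 interval with a fold of 8.51 and no H3K4me1. About 60 to 64 kb downstream of the start, both marks formed wide intervals, 2.56 kb for H3K4me1 (fold 9.89) and 3.57 kb for H3K4me2 (fold 8.26), where 2 LSD1 intervals were found with inhibitor (folds 3.53 and 3.89) and none with DMSO. The next protein-coding gene on that side is NCOA7, so these downstream sites cannot be assigned to HEY2 by position. All 4 DMSO and all 7 inhibitor LSD1 intervals in the HEY2 window overlapped H3K4me2.

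HEYL, the third HEY gene, had the fewest intervals of both marks combined and the least coverage by either mark near the gene. Its start lay in an H3K4me2 interval of 0.616 kb (chromosome 1, 40104727 to 40105342, fold 6.13), and H3K4me2 covered 0.814 kb of the gene and its flanks, the lowest of the 7 genes. The nearest H3K4me1 interval was 31.7 kb upstream, and the stretch free of H3K4me1 around the start was 95.97 kb long. LSD1 was present at the start in both lists, at 40104386 to 40106039 with DMSO (1.65 kb, fold 3.36, 60.8 percentile) and 40104982 to 40105802 with inhibitor (0.821 kb, fold 3.07, 46.6 percentile). LSD1 with DMSO thus covered 2.35 kb of the gene and its flanks, more than H3K4me2 did, where a weak interval inside the gene without either mark was included (40097614 to 40098306, fold 3.18). These lengths are not like for like, since the LSD1 lists are broad peaks and reach to weaker ones than the narrow lists of the marks. The −log10 q values there were 1.58 to 2.21 for LSD1 with DMSO and 11.8 to 17.3 for H3K4me2.

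Downstream of HEYL, towards PABPC4, LSD1 was found without either mark. The inhibitor intervals at 40071941 to 40072562 (fold 4.76, 85.6 percentile) and 40075333 to 40075530 (fold 4.50, 82.4 percentile) had no DMSO partner. A pair at 40042317 to 40043077 (DMSO, fold 3.43) and 40042400 to 40043721 (inhibitor, fold 4.49) lay next to an H3K4me2 interval of 3.86 kb, the highest-scoring H3K4me2 interval of the 7 windows (fold 17.5, 99.4 percentile), without touching it. Of the 5 LSD1 intervals in each list at HEYL, 1 overlapped H3K4me2 and none overlapped H3K4me1.

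**Figure D2:**
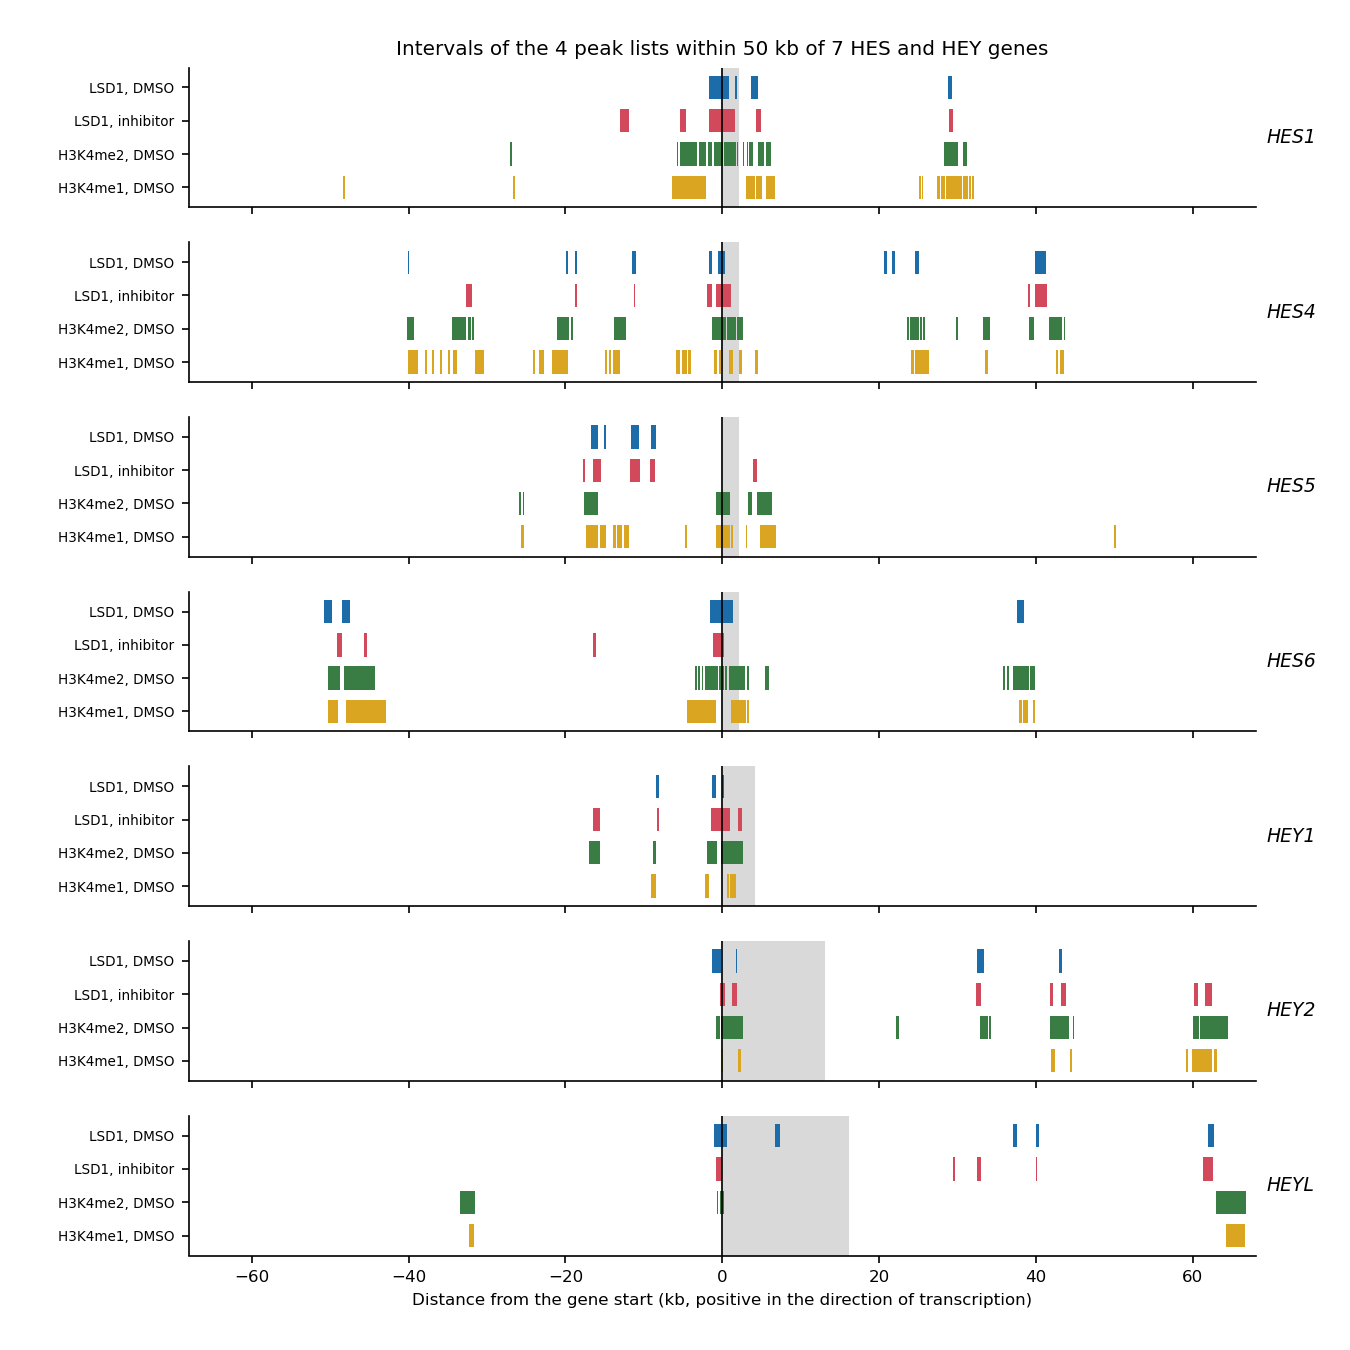
All 225 intervals of the 4 peak lists in the 7 windows, by distance from the gene start in kb, positive in the direction of transcription; bars are intervals of 1 library each, the vertical line is the start and the grey field the gene. Intervals gather at the starts and in separate groups, such as 25 to 32 kb downstream of HES1, and the side downstream of HEY1 is empty.

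H3K4me2 covered more of each gene and its 2 kb flanks than H3K4me1 did, at 7 of 7 genes. Coverage at other genes was not measured here, so this is not shown to be particular to the HES and HEY genes. Coverage by H3K4me2 ran from 0.814 kb at HEYL to 4.67 kb at HES6 with a median of 3.78 kb, and by H3K4me1 from 0 at HEYL to 3.44 kb at HES6 with a median of 1.39 kb. The 2 marks were nearly equal at HES5, with 2.25 and 2.17 kb. LSD1 covered a median of 1.36 kb with DMSO and 1.52 kb with inhibitor, with the highest values at HES1 (3.07 and 3.30 kb) and the lowest at HES5 (0 and 0.034 kb). Coverage was higher with inhibitor at 5 genes, among them HEY1 (0.741 and 2.79 kb) and HES4 (1.36 and 2.50 kb), and lower at HES6 (3.01 and 1.52 kb) and HEYL (2.35 and 0.821 kb). The genes thus went in both directions.

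**Figure D3:**
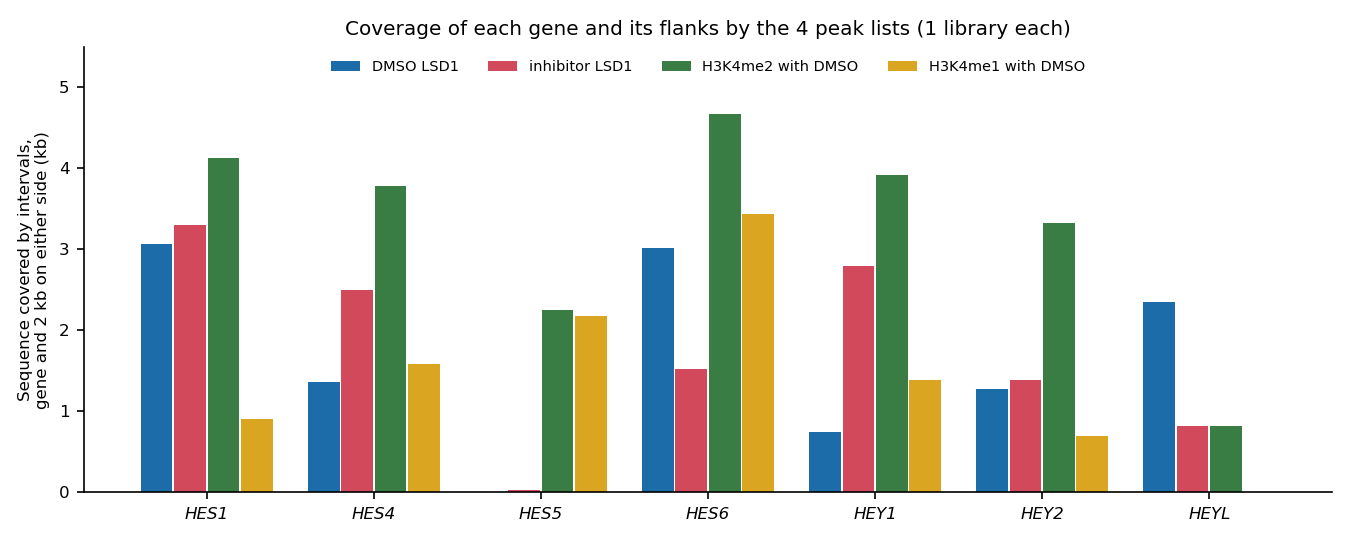
Sequence covered by each peak list over the gene and 2 kb on either side, in kb, for the 7 genes, with bars from 0 for 1 library each and no error bars for want of replicates. H3K4me2 is above H3K4me1 at all 7 genes, and LSD1 is near 0 at HES5.

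The LSD1 lists with DMSO and with inhibitor were compared by overlap. Of the 34 DMSO intervals, 24 (70.6%, 95% Wilson interval 53.8 to 83.2%) were overlapped by an inhibitor interval, beside 63.2% of the whole DMSO list. Of the 37 inhibitor intervals, 22 (59.5%, 43.5 to 73.7%) were overlapped by a DMSO interval, beside 58.1% of the whole inhibitor list. Both confidence intervals held the whole-list value, so by overlap of at least 1 bp the shares are no result particular to these genes. Both shares depended on the overlap rule and the list: with a reciprocal overlap of 50% they were 35.3% and 32.4%, in the highest-scoring 50% of each list 46.7% and 35%, and at a −log10 q of 2 or more 71.4% and 32.3%. Whole-list shares were not computed under these other settings, so whether these values are particular to these genes is not shown. Counting error is all that these confidence intervals cover, and peaks close to each other are not independent. All DMSO intervals were matched at HES1 (4 of 4), HEY1 (3 of 3) and HEY2 (4 of 4), and fewer at HES4 (5 of 10), HES6 (2 of 4), HEYL (3 of 5) and HES5 (3 of 4).

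The matches were also counted by distance and by mark. Within 2 kb of a gene, 11 of 12 DMSO intervals (91.7%, 64.6 to 98.5%) were overlapped with inhibitor, and from 2 to 50 kb 13 of 22 (59.1%, 38.7 to 76.7%). The 2 confidence intervals overlap, and the difference was not tested. No whole-list share by distance was computed, so neither share is shown to be particular to these genes. The exception within 2 kb was the interval inside HEYL. All 10 DMSO intervals with H3K4me2 and no H3K4me1 were matched (100%, 72.2 to 100%), beside 77.5% of such intervals in the whole list, and 6 of 11 with both marks (54.5%, 28.0 to 78.7%), beside 79.4% in the whole list. The 79.4% lay just above its confidence interval, but several classes were compared on few intervals and the difference was not tested. Of those with neither mark 8 of 12 were matched, beside 44.8%, and the 1 with H3K4me1 alone was not, beside 58.1%. Among inhibitor intervals, 8 of 13 with both marks were matched to DMSO, beside 75.3%, and 5 of 11 with H3K4me2 alone, beside 59.2%. With neither mark 9 of 13 were matched, beside 44.3%. No inhibitor interval near the genes had H3K4me1 alone, a class of which 55.3% were matched in the whole list.

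The 10 intervals found with DMSO alone had folds from 3.16 to 3.95 and −log10 q from 1.19 to 2.35, and 5 of them lay in the HES4 window. Both marks were present at 5 of the 10 (50%, 23.7 to 76.3%), beside 17.8% of all DMSO-only intervals. Neither mark was present at 4 (40%, 16.8 to 68.7%), beside 59.6%, and 1 had H3K4me1 alone, beside 11.2%. The value of 17.8% lay below its confidence interval, but several classes were compared on 10 intervals and the difference was not tested. The 15 intervals found with inhibitor alone had folds from 3.03 to 5.89 and −log10 q from 1.45 to 7.99. A −log10 q of at least 2 was reached by 13 of these 15, as by 31 of all 37 inhibitor intervals, and by 2 of the 10 DMSO-only intervals, beside 14 of all 34 DMSO intervals. The whole-list shares were not computed, but the lists differ as wholes. An interval with a −log10 q of 2.10 stood at the 29.4 percentile of the inhibitor list, and one with 2.02 at the 53.9 percentile of the DMSO list. These counts are therefore not shown to be particular to these genes. H3K4me2 without H3K4me1 was present at 6 of these 15 (40.0%, 19.8 to 64.3%), beside 22.3% of all inhibitor-only intervals. Both marks were present at 5, beside 17.7%, neither at 4, beside 49.9%, and H3K4me1 alone at none, beside 10.1%. H3K4me2 without H3K4me1 was present at 0 of the 10 DMSO-only intervals (Wilson interval 0 to 27.8%), beside 11.4% of all such intervals.

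The 24 overlapping pairs, made up of 24 DMSO and 22 inhibitor intervals, differed in width in both directions. The inhibitor interval was the wider in 14 pairs (58.3%, 38.8 to 75.5%) and the narrower in 10, beside 45.3% wider among all 29329 pairs of the whole lists, a value inside that confidence interval. The median width was 0.701 kb with DMSO and 0.727 kb with inhibitor. At HEY1, 1 inhibitor interval contained 2 DMSO intervals. At HES1, 1 inhibitor interval overlapped 2, but shared only 14 bases with the second. At HES6 both pairs were narrower with inhibitor.

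**Figure D4:**
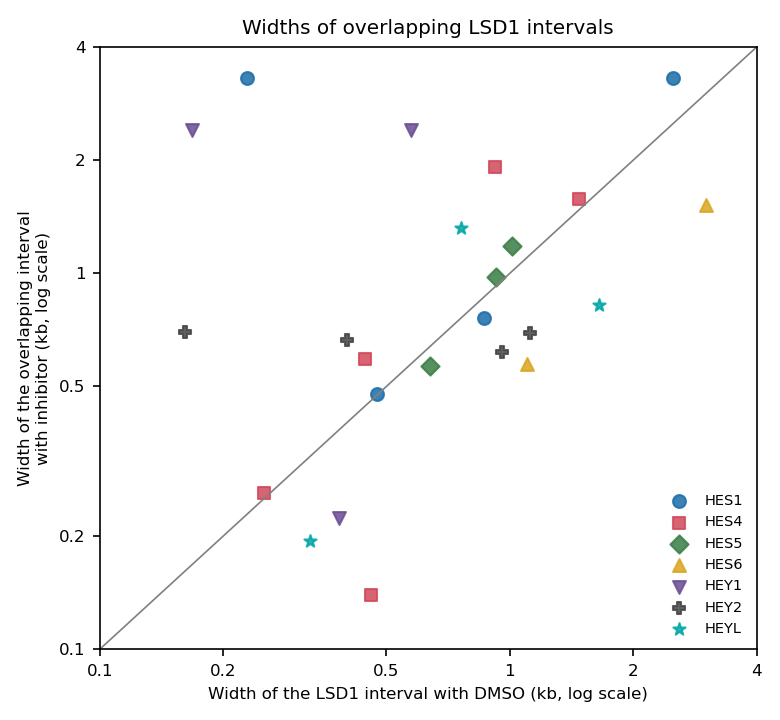
Width of each LSD1 interval with DMSO (horizontal, kb, log scale) against that of the overlapping interval with inhibitor (vertical, kb, log scale) for the 24 pairs, where each point is 1 pair from 1 library per condition and the line marks equal width. Points lie on both sides of the line, with 14 above it and 10 below.

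The LSD1 intervals near these genes were set against the marks. With DMSO, 21 of 34 LSD1 intervals (61.8%, 45.0 to 76.1%) overlapped H3K4me2, beside 50.4% of the whole list, and 12 (35.3%, 21.5 to 52.1%) overlapped H3K4me1, beside 41.5%. With inhibitor, 24 of 37 (64.9%, 48.8 to 78.2%) overlapped H3K4me2, beside 52.9%, and 13 (35.1%, 21.8 to 51.2%) overlapped H3K4me1, beside 39.5%. Each of these confidence intervals held the whole-list value. H3K4me2 without H3K4me1 was found at 10 of 34 DMSO intervals (29.4%, 16.8 to 46.2%), beside 18.7% of the list, and at 11 of 37 inhibitor intervals (29.7%, 17.5 to 45.8%), beside 22.9%. Both marks were found at 11 DMSO intervals (32.4%, beside 31.7%) and 13 inhibitor intervals (35.1%, beside 30.0%). Neither mark was found at 12 DMSO intervals (35.3%, beside 39.8%) and 13 inhibitor intervals (35.1%, beside 37.6%). H3K4me1 alone was found at 1 DMSO and no inhibitor interval, beside 9.84% and 9.49%.

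The same classes were counted by distance, for which no whole-list share was computed and no test was run. Within 2 kb of a gene, 8 of 12 DMSO LSD1 intervals had H3K4me2 alone, 3 both marks and 1 neither. From 2 to 50 kb, 2 of 22 had H3K4me2 alone, 8 both, 1 H3K4me1 alone and 11 neither. With inhibitor the counts were 5, 4 and 1 of 10 within 2 kb, and 6 of 27 with H3K4me2 alone, 9 with both and 12 with neither further out. H3K4me1 was overlapped by all 4 DMSO LSD1 intervals at HES6 and by none of the 3 at HEY1, 4 at HEY2 and 5 at HEYL.

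Seen from the marks, DMSO LSD1 met 27 of the 78 H3K4me2 intervals (34.6%, 25.01 to 45.7%), beside 35.4% of the whole list, and inhibitor LSD1 met 28 (35.9%, 26.1 to 47.0%), beside 40.8%. H3K4me1 overlapped 50 of the 78 H3K4me2 intervals (64.1%, 53.0 to 73.9%), beside 63.1%. H3K4me2 overlapped 46 of the 76 H3K4me1 intervals (60.5%, 49.3 to 70.8%), beside 47.4%. The whole-list value lay just below that confidence interval, but inside it without the HES6 window (55.9%, 44.1 to 67.1%), without the HEY1 window (58.3%, 46.8 to 69.0%) and with windows of 25 kb (60.5%, 45.6 to 73.6%). The windows of HES6, HEY1 and HEYL had H3K4me2 at all of their 8, 4 and 2 H3K4me1 intervals, and HES5 at 4 of 12.

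Density in the windows was set against that over the whole lists. Per Mb of window there were 45.9 LSD1 intervals with DMSO (exact Poisson 95% interval 31.8 to 64.1), 49.9 with inhibitor (35.2 to 68.8), 105 H3K4me2 intervals (83.2 to 131) and 103 H3K4me1 intervals (80.8 to 128). These were 3.14, 3.11, 3.99 and 3.35 times the density over the whole span of the lists. Windows around other genes were not analysed here, so the density is not shown to be particular to the HES and HEY genes. Without the HES4 window, the H3K4me1 density was 75.1 per Mb.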

How the data were processed

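ChIP-seq peak lists of 4 libraries from NCI-H526 cells were analysed, with groups taken from the sample descriptions. BWA, Picard and MACS2 2.0 and build hg19 are named in the submitters' processing notes. The sources used here do not give the caller's control, the handling of duplicates or the depth of each library. The deposited files have no header, so columns were read from the MACS2 layout, broad for LSD1 and narrow for the marks. The deposited score is 10 times the −log10 q, to within 1 unit. The deposited fold is a ratio over the caller's background, and the deposited −log10 p and −log10 q belong to single peaks. They are the authors' values and served to describe, rank or filter intervals within a list. The smallest deposited −log10 q was 1.00 and 1.01 in the LSD1 lists and 2.02 and 2.01 in the H3K4me2 and H3K4me1 lists, so the LSD1 lists reach to weaker peaks.

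The 178083 rows for H3K4me2 and 175135 for H3K4me1 were reduced to distinct intervals, with the highest value over their rows. Positions are 1-based. Intervals overlapped when they shared at least 1 bp. Gene intervals were given in Mb to 1 kb, and strands are those of the RefSeq promoter table, or textbook knowledge for HEY1. RefSeq tables on GRCh38.p14 gave names, gene order, spans and promoter sequences, and no coordinates were converted. Density over the whole lists used the largest interval end of each chromosome as its length. Other Notch pathway genes were not analysed here.

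No test between conditions was run, since each group has 1 library. Named were all 7 genes, intervals within 2 kb, the highest-scoring LSD1 intervals of each window and the 5 highest of each list; the remaining intervals printed were picked once values were known. The members, lists and comparisons were chosen with earlier results of these data known. Counting of overlaps was tested on simulated data, with a planted share of 50% recovered as 50%. Alternatives were other overlap rules, stricter lists, LSD1 lists of equal length, other windows and leaving out each window. Python 3.11.15, pandas 2.3.3, numpy 2.4.6, scipy 1.17.1 and matplotlib 3.10.9 were used.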

Additional observations from a re-analysis of the deposited data

How the results depend on the processing

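No paired analysis was possible because every condition is a single library. Whole-list values were not computed under the other overlap rules or the stricter lists, so values given for them describe only the windows of these genes. A share or density counts as moved when it left the 95% confidence interval of the reported value, and a count of genes when it changed by over 1.5 times, so wide intervals hide sizeable shifts. With a reciprocal overlap of 50% all 10 overlap shares moved: DMSO in inhibitor LSD1 35.3%, inhibitor in DMSO 32.4%, DMSO LSD1 on H3K4me2 11.8% and on H3K4me1 5.88%, inhibitor LSD1 on H3K4me2 13.5% and on H3K4me1 2.70%, H3K4me2 met by DMSO LSD1 5.13% and by inhibitor LSD1 6.41%, H3K4me2 on H3K4me1 23.1% and H3K4me1 on H3K4me2 23.7%. With the interval centre required inside the other interval, 6 moved: DMSO in inhibitor LSD1 52.9%, inhibitor in DMSO 40.5%, inhibitor LSD1 on H3K4me2 48.6%, H3K4me2 met by DMSO LSD1 17.9% and by inhibitor LSD1 17.9%, and H3K4me2 on H3K4me1 52.6%. LSD1 on H3K4me1 fell there to 23.5% (DMSO) and 24.3% (inhibitor), inside the intervals. In the highest-scoring 50% of each list, which hold fewer intervals by construction, DMSO in inhibitor LSD1 was 46.7% and inhibitor in DMSO 35%. The densities there were 20.2 (DMSO LSD1), 27.0 (inhibitor LSD1), 68.8 (H3K4me2) and 55.3 (H3K4me1) per Mb. With LSD1 intervals of −log10 q of 2 or more, inhibitor in DMSO was 32.3%, H3K4me2 met by DMSO LSD1 19.2% and the DMSO density 18.9 per Mb. Genes with a DMSO LSD1 interval within 2 kb fell from 6 to 4 there and in the highest-scoring 50% of each list. The rule counts neither fall as moved. The DMSO density was 66.5 per Mb in windows of 25 kb, and the H3K4me1 density 75.1 per Mb without the HES4 window. With the start moved by up to 1 kb, a setting that can only keep or raise a count, 5 starts reached H3K4me1. The alternatives for gene starts and pair widths were chosen after seeing the data. By that rule windows of 100 kb and LSD1 lists of equal length moved no value, although at 100 kb LSD1 on H3K4me1 was 43.5% (DMSO) and 42.2% (inhibitor). The cause of the remaining changes was not tested.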
